A study of Mus musculus with 18 samples.

Results

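The nuclear-encoded subunits of the respiratory chain were followed in whole pancreas from 18 mice aged 20 weeks. Members were chosen by name: protein-coding genes whose symbols begin with Nduf followed by a, b, c, s or v, with Uqc, with Cox and a digit from 4 to 8, or with Atp5, together with Sdha, Sdhb, Sdhc and Sdhd. The rule found 97 members among the 25651 genes of the deposited table. Of these, 86 encode subunits (39 of complex I, 4 of complex II, 8 of complex III, 18 of complex IV and 17 of complex V), and 11 encode assembly factors that the names bring in (8 Ndufaf genes and 3 Uqcc genes). Ndufa4 was counted under complex I by its name, although its protein is now assigned to complex IV.

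The mice had a mixed background of the strains 129Sv and C57BL/6 and fell into 3 groups: 6 wild-type mice (WT), 7 mice with the genotype KPC, and 5 mice with the genotype KPC ASC KO. KPC commonly names a model of pancreatic cancer, and ASC, encoded by Pycard, is the adaptor through which inflammasome sensors recruit caspase 1. The alleles behind the names KPC and ASC KO, the promoter or cell type that drives any Cre, sex and litter are not stated by the labels. The KPC ASC KO mice carry the KPC genotype too, and no group with ASC KO alone was measured in these samples.

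The respiratory chain sits in the inner mitochondrial membrane. Complex I takes electrons from NADH and complex II takes them from succinate, both pass them to coenzyme Q, complex III hands them to cytochrome c, and complex IV gives them to oxygen. Complexes I, III and IV pump protons across the membrane as they do so, and complex V, the ATP synthase, uses the returning protons to make ATP. Complex II is encoded wholly in the nucleus, whereas the other complexes also hold a few subunits encoded in mitochondrial DNA. The acinar cell, which makes and secretes digestive enzymes and forms most of the pancreas, spends much ATP on protein synthesis and secretion.

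Promoters of nuclear respiratory genes are known for sites of the factors NRF1, GABP (an ETS factor) and YY1. The promoter windows of RefSeq (GRCm38.p6) run from 250 bases before to 50 bases after a gene's start, and 79 of the 97 members had at least 1 window, 84 windows in all. The NRF1 core, a palindrome of 10 bases, stood in 8.3% of the member windows, against 2.1% of the 6601 windows of genes tested here and 1.0% of all 32851 windows. The ETS sequence CCGGAAG stood in 22.6%, 18.1% and 8.9% of them, and the YY1 sequence AAGATGGC in 14.3%, 4.9% and 2.7%. These shares are over whole windows. In the 250 bases before the start, the YY1 sequence stood in Atp5j alone among the members, so its other matches reach into the 50 bases after the start. Both strands were searched, and a match is a run of letters, not a bound site. The 250 bases before the start of 4 members are printed because they hold the NRF1 core, the ETS sequence or both, and because these members cover both kinds of result: Cox6a1, Atp5k and Uqcr11 fell in KPC pancreas, and Atp5g2 was not called changed. Capitals mark the NRF1 core (10 bases) and the ETS sequence (7 bases, read on either strand), and each sequence is the strand of the gene, 5′ to 3′. The window printed for Atp5g2 lies inside the span given for that gene further on, so it belongs to a start within that span and not to its outer 5′ end.
Cox6a1, chr5:115348959-115349208, minus strand: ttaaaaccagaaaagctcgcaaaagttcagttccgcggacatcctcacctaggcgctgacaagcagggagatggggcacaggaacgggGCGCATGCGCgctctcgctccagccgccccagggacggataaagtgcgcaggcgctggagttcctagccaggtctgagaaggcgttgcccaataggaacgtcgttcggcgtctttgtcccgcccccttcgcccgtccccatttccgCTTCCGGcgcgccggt
Atp5k, chr5:108434400-108434649, minus strand: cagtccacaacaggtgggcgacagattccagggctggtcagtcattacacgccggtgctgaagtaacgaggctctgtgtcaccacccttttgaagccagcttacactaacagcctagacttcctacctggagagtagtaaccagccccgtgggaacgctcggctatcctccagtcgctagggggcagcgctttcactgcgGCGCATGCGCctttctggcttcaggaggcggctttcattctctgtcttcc
Uqcr11, chr10:80406822-80407071, minus strand: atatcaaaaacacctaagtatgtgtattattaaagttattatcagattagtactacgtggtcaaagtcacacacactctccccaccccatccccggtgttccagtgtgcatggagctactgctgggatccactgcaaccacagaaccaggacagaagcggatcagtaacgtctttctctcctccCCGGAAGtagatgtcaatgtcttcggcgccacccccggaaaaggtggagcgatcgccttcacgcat
Atp5g2, chr15:102671048-102671297, minus strand: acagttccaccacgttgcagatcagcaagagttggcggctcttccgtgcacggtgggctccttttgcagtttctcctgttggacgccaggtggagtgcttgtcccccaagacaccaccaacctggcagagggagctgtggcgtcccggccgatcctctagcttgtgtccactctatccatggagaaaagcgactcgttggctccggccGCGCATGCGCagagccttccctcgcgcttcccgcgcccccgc

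The library totals ran from 294077 to 1626977 counts of unique molecular identifiers (UMIs), with 294077 to 416879 in WT, 452472 to 1626977 in KPC and 374432 to 647947 in KPC ASC KO. Levels of genes are given as TMM CPM, that is, counts scaled to a common library size by the trimmed mean of M values, and ± marks the SD over the 6 WT, 7 KPC or 5 KPC ASC KO mice. Pycard averaged 58.6 ± 6.95 CPM among WT mice, 70.0 ± 24.2 among KPC mice and 19.9 ± 11.7 among KPC ASC KO mice. It ran from 35.1 to 99.5 CPM in KPC and from 5.56 to 34.2 CPM in KPC ASC KO, so that transcript was counted in every KPC ASC KO mouse and the ranges nearly touched (log2 difference -1.94, SE 0.35, edgeR adjusted p = 0.0043). Acinar enzyme genes took 54.6% to 66.4% of all counts in WT, 5.08% to 45.6% in KPC and 37.2% to 64.4% in KPC ASC KO libraries. Among the KPC mice, numbers 40, 89, 145 and 154 stood apart by B cell transcripts (10 marker genes with a summed level of 841 to 2050 CPM, against 52.2 to 170 in the other 3), so results are also given without them. Sums over markers, here and later, are CPM of total counts, without TMM. Among the KPC ASC KO mice, numbers 377 and 384 stood apart, with acinar enzyme shares of 43.7% and 37.2% and macrophage marker sums of 3000 and 3280 CPM, against at least 59.7% and at most 624 CPM in the other 3.

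For each mouse, the score of the members is the mean log2 CPM of the 84 members that passed the filter on low counts. The score ran from 6.87 to 7.01 in the 6 WT mice, with a median of 6.94. In KPC it ran from 6.22 to 6.64, with a median of 6.34. KPC ASC KO mice had 6.85 (318), 6.89 (335), 6.58 (377), 6.57 (384) and 6.84 (388). All 7 KPC scores lay below all WT scores, and KPC ASC KO mice 377 and 384 lay within the KPC range while the other 3 lay above it.

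**Figure D1:**
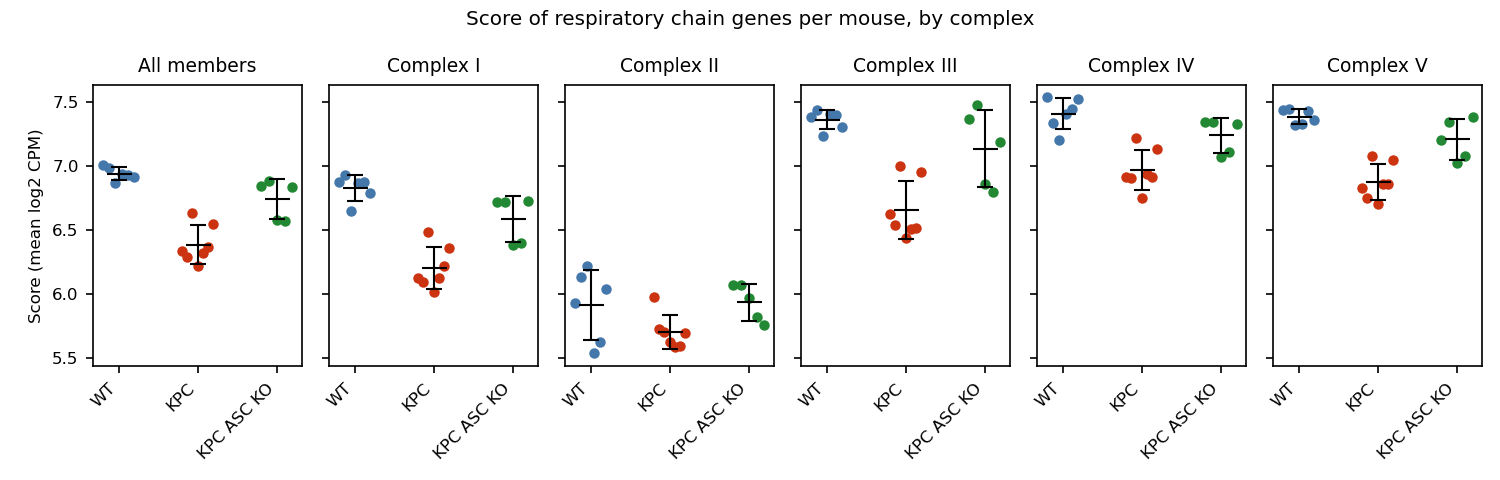
Score of the respiratory chain members in each mouse (mean log2 CPM after TMM scaling, y axis) for all tested members and for complexes I to V; points are mice, and bars are the mean with the SD over 6 WT, 7 KPC and 5 KPC ASC KO mice. KPC mice all lie below WT mice for all members and complexes I, III and V, while the groups overlap in complexes II and IV; with scaling to total counts the order of the KPC and WT scores of all members turns over.

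The same order held in complex I (WT 6.65 to 6.93, KPC 6.02 to 6.49), complex III (7.24 to 7.44 and 6.44 to 7.0) and complex V (7.32 to 7.45 and 6.71 to 7.08), with no overlap between the groups. For complex IV the ranges just overlapped, at 7.21 to 7.54 in WT and 6.75 to 7.22 in KPC. For complex II they overlapped widely, at 5.54 to 6.22 in WT and 5.59 to 5.98 in KPC. These scores depend on how libraries are scaled: with scaling to total counts, the score of all members averaged 6.37, 6.97 and 6.35 in the WT, KPC and KPC ASC KO groups. As a share of all counts, the members took 0.689% to 0.984% in WT, 0.958% to 1.52% in KPC and 0.665% to 1.09% in KPC ASC KO libraries. The acinar enzyme genes take most of the counts in WT and fewer in KPC, so a share of all counts measures the members against the enzymes, and TMM measures them against the bulk of genes.

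**Figure D2:**
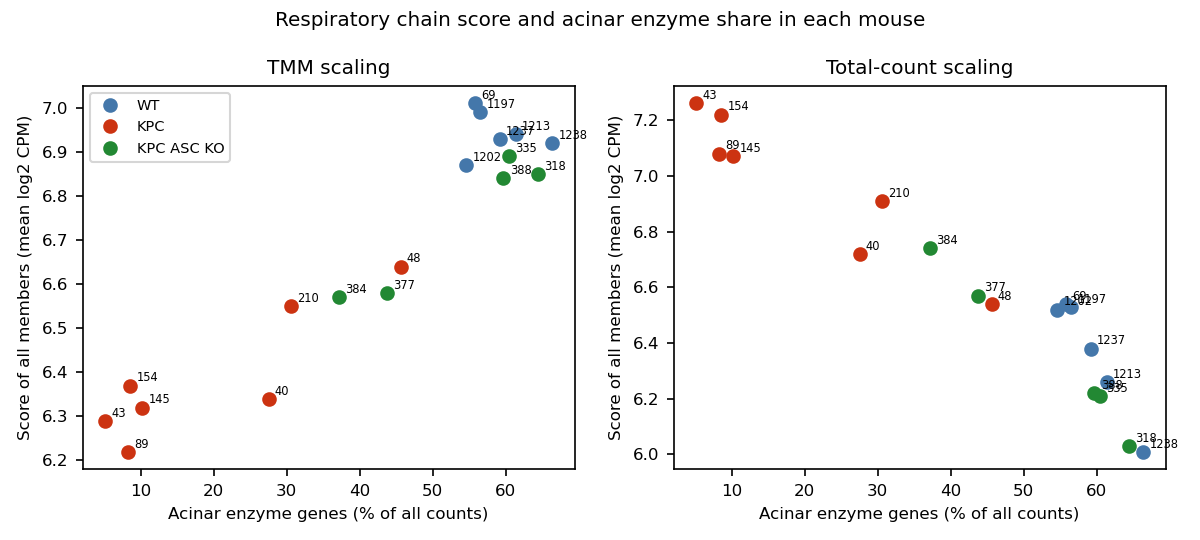
Score of all tested members (mean log2 CPM, y axis) against the share of all counts taken by acinar enzyme genes (%, x axis) in each of the 18 mice, after TMM scaling (left) and total-count scaling (right); points are mice, numbered. The 4 mice with the lowest enzyme shares (5.08% to 10.2%), all KPC, have scores of 6.22 to 6.37 with TMM, below all WT mice, and the 4 highest scores with total counts, 7.07 to 7.26.

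In KPC against WT pancreas, respiratory chain transcripts were lower relative to the bulk of genes. Of the 84 tested members, 50 fell, 0 rose and 34 were not called (edgeR quasi-likelihood test, adjusted p under 0.05 over the 6920 genes tested). That is 59.5% of the members lower, where 15.1% of all genes tested were lower and 14.8% higher (29.9% in either direction), and 0 members were higher at an unadjusted p under 0.05. The median log2 difference of the members was -0.61 (range -1.44 to 0.32), against 0.06 over all genes. The direction rests on the scaling in most members. With total counts 50 members were higher and 0 lower (0 lower at an unadjusted p under 0.05). Of those 50, 22 were among the 50 that fell with TMM. Of the named members, Ndufb9, Ndufs6, Ndufs5, Uqcrq and Uqcr11 stayed below 0 with total counts but were not called. In that scaling 76.9% of all genes were higher, and their median moved to 1.30 and that of the members to 0.59. Relative to the median of all genes, the members stood at -0.67 with TMM, -0.71 with total counts and -0.67 with upper-quartile scaling, where the median of all genes was 0.18. Without KPC mice 40, 89, 145 and 154, 19 of 83 tested members fell, all of them among the 50, where 5.91% of 5852 genes were lower and 6.94% higher, and the members' median was -0.47. Of the tested members, 18 had every KPC mouse below every WT mouse and 0 the reverse, where 5.09% and 3.77% of all genes did so. In whole tissue, fewer cells of a type and less RNA per cell cannot be told apart.

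Other cell types moved with this comparison. Of 36 acinar enzyme genes 34 fell, with a median log2 difference of -2.59, and of 6 tested acinar transcription factors 5 fell. Of 10 tested macrophage markers 8 rose, as did 8 of 10 tested fibroblast markers. The summed level of the 14 macrophage markers was 524 to 871 CPM in WT and 2080 to 5190 CPM in KPC, and that of the 12 fibroblast markers was 547 to 960 CPM in WT and 2470 to 6520 CPM in KPC. These sums are on the scale of total counts, where the median log2 difference of all genes was itself 1.30. On the TMM scale the median log2 difference was 1.41 for the tested macrophage markers and 1.39 for the tested fibroblast markers. In a fit with acinar enzyme abundance as a covariate, 0 members were called lower in edgeR (19 at an unadjusted p under 0.05) and the members' median was -0.34, but no gene was called in either direction in that fit. The part of cell composition in the members' fall was not tested beyond these values.

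**Figure D3:**
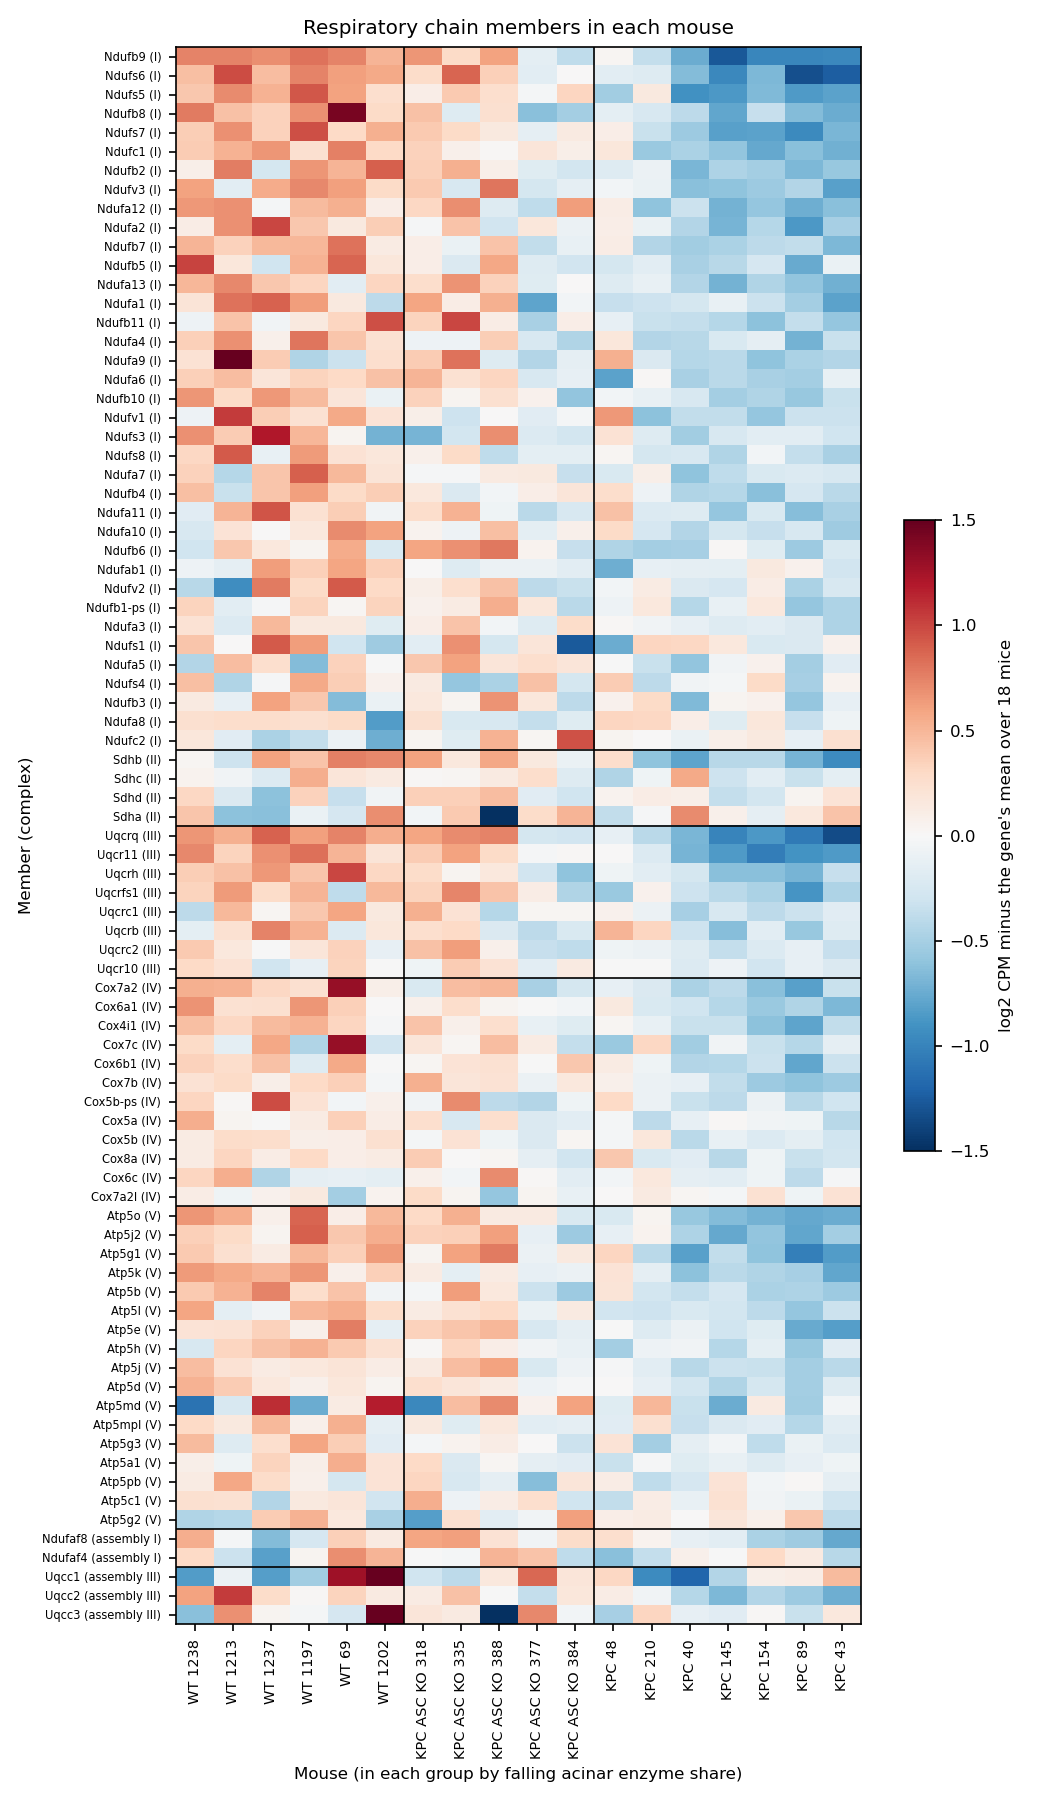
Level of 83 of the 84 tested members (rows, by complex) in each of the 18 mice (columns, by group and then by falling acinar enzyme share), as log2 CPM after TMM scaling minus the gene's mean over the mice; red is above and blue below that mean. Most rows of complexes I, III, IV and V are bluer in the KPC columns than in the WT columns. KPC ASC KO mice 377 and 384 resemble the KPC columns more than the other 3 do. With total-count scaling most members turn over between KPC and WT, but Ndufb9, Ndufs6, Ndufs5, Uqcrq and Uqcr11 stay lower in KPC without being called.

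Of the 38 tested members of complex I, 25 fell and 13 were not called, with a median log2 difference of -0.71. This and the counts for the other complexes are on the TMM scale, beside 15.1% of all genes tested lower. With total counts the median of all members turned positive.
Ndufb9 (ENSMUSG00000022354, chr15:58933756-58939488 of GRCm38), an accessory subunit of the membrane arm, ran from 365 to 448 CPM in WT with a median of 429, and from 104 to 259 CPM in KPC with a median of 129. The KPC ASC KO values were 405 (318), 313 (335), 230 (377), 195 (384) and 388 (388) CPM. Every KPC mouse lay below every WT mouse, and KPC ASC KO mice 377 and 384 lay within the KPC range.
Its log2 difference between KPC and WT was -1.44 (SE 0.20, adjusted p = 5.19e-05), a 2.71-fold fall.

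Ndufs6 (ENSMUSG00000021606, chr13:73319838-73328542), a zinc-binding accessory subunit of the peripheral arm, ran from 202 to 294 CPM in WT (median 224) and from 57.4 to 132 CPM in KPC (median 91.7). Among KPC ASC KO mice it was 180 (318), 273 (335), 132 (377), 148 (384) and 190 (388) CPM. The KPC and WT ranges did not overlap, and KPC ASC KO mouse 377 sat at the upper end of the KPC range. The log2 difference between KPC and WT was -1.38 (SE 0.21, adjusted p = 8.48e-05).
Ndufs5, another accessory subunit, fell, with 80.7 ± 14.0 CPM in WT and 34.2 ± 11.2 in KPC, a log2 difference of -1.27 (SE 0.21, adjusted p = 0.000189). Ndufs7, which carries an iron-sulfur cluster close to the coenzyme Q site, fell, with 207 ± 39.2 CPM in WT and 96.2 ± 27.6 in KPC (log2 -1.13, SE 0.18, adjusted p = 0.000131). These falls of Ndufb9, Ndufs6, Ndufs5 and Ndufs7 also passed without KPC mice 40, 89, 145 and 154, with adjusted p of 0.00515, 0.00608, 0.0204 and 0.0137.

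Ndufs1 and Ndufv1 are core subunits of the part that oxidises NADH. Ndufs1, the largest iron-sulfur subunit, ran from 17.0 to 51.3 CPM in WT (median 30.6) and from 14.4 to 33.0 CPM in KPC (median 27.0), so that the ranges overlapped. For KPC ASC KO the values were 22.8 (318), 43.0 (335), 29.7 (377), 9.27 (384) and 21.1 (388) CPM. Ndufs1 was not called between KPC and WT (log2 -0.28, 95% interval -0.93 to 0.37, adjusted p = 0.528), on 4 to 12 counts per WT library. Ndufv1, which binds NADH and the flavin, fell, with 80.3 ± 24.0 CPM in WT and 50.3 ± 19.5 in KPC (log2 -0.71, SE 0.23, adjusted p = 0.0214). It did not pass when WT mouse 1213 was left out (-0.56, adjusted p = 0.0725) and without KPC mice 40, 89, 145 and 154 (-0.47, adjusted p = 0.301).
Ndufa4 fell, with 227 ± 44.0 CPM in WT and 136 ± 27.6 in KPC (log2 -0.74, SE 0.17, adjusted p = 0.00247; -0.63 and 0.0613 without those 4 mice). Ndufc2, a membrane arm subunit, had the highest log2 difference of all tested members, at 0.32 (95% interval -0.13 to 0.76, adjusted p = 0.279), with 48.6 ± 11.1 CPM in WT and 60.2 ± 5.68 CPM in KPC. Ndufc2 and the Ndufb6 values given further on were singled out after their values were seen.

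Complex II, the succinate dehydrogenase of the citric acid cycle, had 1 of its 4 members fall on the TMM scale. Sdhb (ENSMUSG00000009863, chr4:140961203-140979193), its iron-sulfur subunit, ran from 67.1 to 143 CPM in WT (median 121) and from 42.3 to 101 CPM in KPC (median 54.0). Mice of KPC ASC KO had 128 (318), 93.8 (335), 92.8 (377), 77.9 (384) and 127 (388) CPM. The WT and KPC ranges overlapped, with KPC mouse 48 the highest of its group.
The log2 difference was -0.96 (SE 0.22, adjusted p = 0.00251), and it was -0.85 with an adjusted p of 0.0521 without KPC mice 40, 89, 145 and 154. Sdha (ENSMUSG00000021577, chr13:74322254-74350280), the catalytic flavoprotein, ran from 25.6 to 67.9 CPM in WT (median 36.0) and from 31.2 to 68.5 CPM in KPC (median 43.5), ranges that nearly coincide. KPC ASC KO mice had 39.9 (318), 54.7 (335), 50.1 (377), 59.4 (384) and 12.7 (388) CPM.
Its log2 difference between KPC and WT was 0.18 (95% interval -0.42 to 0.77, adjusted p = 0.676). The membrane anchors Sdhc and Sdhd were at -0.25 (adjusted p = 0.389) and 0.04 (adjusted p = 0.91). Whether Sdhb differed from the other members of the complex was not tested.

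Complex III had 5 of 8 members fall on the TMM scale. Uqcrq (ENSMUSG00000044894, chr11:53427922-53430831), a small subunit of the membrane part, ran from 351 to 446 CPM in WT (median 376) and from 93.3 to 221 CPM in KPC (median 132). The KPC ASC KO values were 365 (318), 395 (335), 200 (377), 197 (384) and 405 (388) CPM. The WT and KPC ranges were far apart, and KPC ASC KO mice 377 and 384 again lay within the KPC range.
The log2 difference between KPC and WT was -1.43 (SE 0.20, adjusted p = 5.69e-05).
Uqcr11 (ENSMUSG00000020163, chr10:80402997-80406830), another small subunit and one of those whose promoter is printed, ran from 276 to 428 CPM in WT (median 367) and from 116 to 242 CPM in KPC (median 133). Among KPC ASC KO mice it was 313 (318), 367 (335), 237 (377), 243 (384) and 296 (388) CPM. Every KPC mouse lay below every WT mouse, and KPC ASC KO mouse 377 lay within the KPC range, with mouse 384 next above it. The log2 difference between KPC and WT was -1.19 (SE 0.18, adjusted p = 8.48e-05).

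Uqcrh, the hinge protein that helps bind cytochrome c1, fell, with 201 ± 39.8 CPM in WT and 104 ± 18.5 in KPC (log2 -0.96, SE 0.17, adjusted p = 0.000383), with the groups not overlapping. The falls of Uqcrq, Uqcr11 and Uqcrh passed without KPC mice 40, 89, 145 and 154 as well, with adjusted p of 0.00509, 0.0110 and 0.0270. Uqcrfs1, the Rieske iron-sulfur protein, fell, with 91.9 ± 20.6 CPM in WT and 53.4 ± 11.3 in KPC (log2 -0.78, SE 0.21, adjusted p = 0.0086), and was at -0.63 (adjusted p = 0.13) without those mice. Uqcrc1, a core protein, fell, with 95.8 ± 22.9 CPM in WT and 68.3 ± 9.37 in KPC (log2 -0.51, SE 0.19, adjusted p = 0.0428). The Uqcrc1 call was lost in 8 of 18 fits that left out 1 mouse (WT 69, 1197 or 1213, or KPC 40, 43, 89, 145 or 154), with values of -0.62 to -0.43 over the 18 fits, and without the 4 mice (-0.32, adjusted p = 0.42). Uqcr10, Uqcrb and Uqcrc2 were not called, at -0.22, -0.39 and -0.38.
The assembly factor Uqcc2 fell (log2 -0.84, SE 0.20, adjusted p = 0.00334), while Uqcc1 at -0.89 and Uqcc3 at -0.62 did not pass (adjusted p of 0.176 and 0.205).

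**Figure D4:**
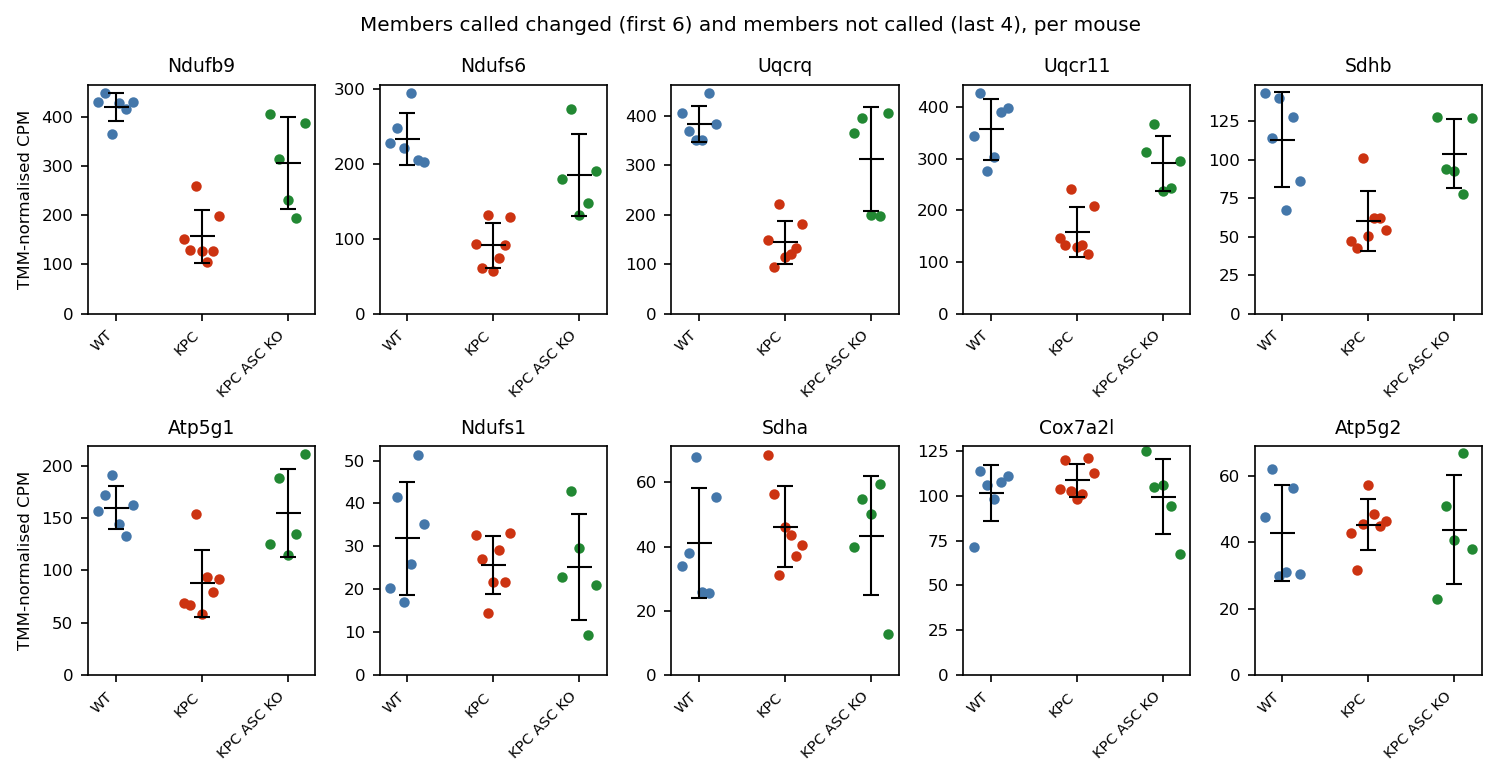
CPM after TMM scaling (y axis, from 0) of 6 members called changed in both KPC against WT and KPC ASC KO against KPC (Ndufb9, Ndufs6, Uqcrq, Uqcr11, Sdhb, Atp5g1) and of 4 members called in neither (Ndufs1, Sdha, Cox7a2l, Atp5g2); points are mice, and bars are the mean with the SD over 6 WT, 7 KPC and 5 KPC ASC KO mice. For Uqcrq the KPC mice sit between 93.3 and 221 CPM and the WT mice between 351 and 446, whereas for Ndufs1 the ranges overlap; with total-count scaling Sdhb and Atp5g1 are higher in KPC than in WT.

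Complex IV had 5 of its 12 tested members fall on the TMM scale. Cox4i1, which is needed for assembly and carries a site of regulation by ATP, ran from 318 to 466 CPM in WT (median 425) and from 186 to 331 CPM in KPC (median 256). The ranges overlapped slightly. Its log2 difference was -0.70 (SE 0.15, adjusted p = 0.0016; -0.48 and 0.0949 without KPC mice 40, 89, 145 and 154). Cox6a1, whose promoter is printed, fell, with 572 ± 106 CPM in WT and 348 ± 69.8 in KPC (log2 -0.72, SE 0.15, adjusted p = 0.00109; -0.58 and 0.061 without those mice). Cox6b1, on the outer face of the complex, fell, with 195 ± 37.4 CPM in WT and 132 ± 27.1 in KPC (log2 -0.57, SE 0.16, adjusted p = 0.0107; -0.33 and 0.302 without them). Cox5a stood at 267 ± 41.6 and 209 ± 24.8 CPM and was not called (log2 -0.36, 95% interval -0.65 to -0.07, adjusted p = 0.0582), although it passed in 6 of 18 fits that left out 1 mouse (WT 1237, KPC 48, or KPC ASC KO 318, 335, 377 or 388; values of -0.41 to -0.29 over the 18). Cox5b and Cox5b-ps are near-identical copies, so that their counts, which were not called, are uncertain.

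Complex IV also has paired isoforms, with the form made in most tissues beside a form known from heart and skeletal muscle (Cox6a2, Cox7a1, Cox8b), lung (Cox4i2) or testis (Cox6b2, Cox7b2). The second forms were close to absent: Cox4i2 had 27 counts in all 18 libraries together, Cox6a2 77, Cox7a1 15, Cox8b 26, Cox6b2 34 and Cox7b2 3, and none passed the filter. In Cox6a2, the most abundant of the 6 by counts, the values ran from 0 to 29.7 CPM in WT and from 0.621 to 14.3 CPM in KPC. They were 0 in KPC ASC KO mice 318, 377 and 384, 3.91 CPM in mouse 335 and 4.22 CPM in mouse 388. The 8 skeletal muscle markers had summed levels of 0 to 10.2 CPM in WT (Acta1, Actn3, Myh1, Myh2 and Tnnt3 at 0), 4.63 to 14.1 CPM in KPC ASC KO (Actn3 and Myh1 at 0) and 4.42 to 40.0 CPM in KPC (Myh2 at 0), apart from KPC mouse 210 at 110 CPM. Ucp1, the defining gene of brown fat, was at 0 in WT and KPC ASC KO and was detected in KPC, and the part of these cells in the second forms was not tested.

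Cox7a2 and Cox7a2l encode related proteins. Cox7a2 is a subunit of complex IV, and Cox7a2l is a factor that joins complexes III and IV into a supercomplex. Cox7a2 ran from 114 to 269 CPM in WT (median 144) and from 60.0 to 98.4 CPM in KPC (median 80.8), with no overlap (log2 -1.01, SE 0.21, adjusted p = 0.00117; -0.79 and 0.0487 without KPC mice 40, 89, 145 and 154). Cox7a2l ran from 71.5 to 114 CPM in WT and from 98.3 to 121 CPM in KPC and was not called (log2 0.11, 95% interval -0.23 to 0.44, adjusted p = 0.654).
The count ratio of the pair within a library does not depend on scaling. It was 1.08 to 3.70 Cox7a2 counts per Cox7a2l count in WT and 0.565 to 0.954 in KPC, and every KPC mouse lay below every WT mouse. For KPC ASC KO the values were 0.730 (318), 1.40 (335), 0.722 (377), 0.942 (384) and 2.21 (388), a spread that covers parts of both other groups.
The log2 ratio was lower by 1.05 in KPC than in WT (-0.45 ± 0.26, SD, n = 7, against 0.60 ± 0.66, SD, n = 6). The exact two-sided permutation test gave p = 0.00117, or 0.0281 adjusted over the 24 ratio tests. This was the sole ratio of the 24 to pass. It missed the threshold in 11 of the 18 sets that left out 1 mouse (each KPC mouse but 48 and each WT mouse but 1202). Over the 18 sets the differences were -1.15 to -0.79, with adjusted p up to 0.0607 in the exact test (WT mouse 69, at 3.70, gave the smallest difference when left out). In every set the WT and KPC mice still did not overlap, so the unadjusted exact p was the smallest that the number of mice allows. A miss there does not show that the ratio rests on 1 mouse.

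Complex V had 13 of 17 members fall on the TMM scale. Atp5b, the catalytic beta subunit, ran from 259 to 451 CPM in WT (median 359) and from 183 to 310 CPM in KPC (median 210). The ranges overlapped through KPC mouse 48 at 310 CPM. The log2 difference was -0.70 (SE 0.18, adjusted p = 0.005; -0.57 and 0.109 without KPC mice 40, 89, 145 and 154).
Atp5a1, the alpha subunit, fell, with 264 ± 41.4 CPM in WT and 206 ± 14.7 in KPC (log2 -0.36, SE 0.13, adjusted p = 0.0427), and its call was lost in 9 of 18 fits that left out 1 mouse (WT 69, 1202 or 1237, or KPC 40, 43, 48, 89, 145 or 154; values of -0.42 to -0.29 over the 18) and without the 4 mice (-0.32, adjusted p = 0.279). Atp5o, the stalk subunit OSCP, fell, with 178 ± 38.9 CPM in WT and 89.5 ± 21.7 in KPC (log2 -1.01, SE 0.18, adjusted p = 0.000392) with no overlap.
The membrane subunits Atp5k (log2 -0.85, SE 0.15, adjusted p = 0.000438), Atp5j2 (-0.92, SE 0.20, adjusted p = 0.00187) and Atp5l (-0.67, SE 0.15, adjusted p = 0.002) fell as well. Without KPC mice 40, 89, 145 and 154, Atp5o, Atp5k and Atp5l passed (adjusted p of 0.0328, 0.0372 and 0.0494) and Atp5j2 did not (0.0886).

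Atp5g1, Atp5g2 and Atp5g3 encode the same mature c subunit, which forms the rotating ring, behind different import sequences. Atp5g1 (ENSMUSG00000006057, chr11:96068852-96075670) ran from 133 to 191 CPM in WT (median 159) and from 58.4 to 154 CPM in KPC (median 79.7). Mice of KPC ASC KO had 125 (318), 188 (335), 115 (377), 135 (384) and 211 (388) CPM. The WT and KPC ranges overlapped through KPC mouse 48 alone, at 154 CPM.
The log2 difference between KPC and WT was -0.90 (SE 0.21, adjusted p = 0.00255; -0.65 and 0.0868 without KPC mice 40, 89, 145 and 154).
Atp5g2 (ENSMUSG00000062683, chr15:102662864-102672352), with the NRF1 core in its printed promoter, ran from 29.7 to 62.1 CPM in WT (median 39.3) and from 31.7 to 57.4 CPM in KPC (median 45.6). KPC ASC KO mice had 22.8 (318), 50.8 (335), 40.8 (377), 66.8 (384) and 38.0 (388) CPM. The 3 groups overlapped, and the log2 difference between KPC and WT was 0.06 (95% interval -0.46 to 0.58, adjusted p = 0.888).
Atp5g3 fell, with 354 ± 78.7 CPM in WT and 266 ± 43.3 in KPC (log2 -0.41, SE 0.15, adjusted p = 0.0424), a call lost in 10 of 18 fits that left out 1 mouse (WT 69, 1197, 1237 or 1238, or KPC 40, 43, 89, 145, 154 or 210; values of -0.50 to -0.34) and without the 4 mice (-0.39, adjusted p = 0.227). The ratio of Atp5g1 to Atp5g2 counts ran from 2.30 to 6.07 in WT and from 1.02 to 3.31 in KPC. The KPC ASC KO values were 5.24 (318), 3.59 (335), 2.78 (377), 2.01 (384) and 5.32 (388). The log2 ratio was lower by 1.01 in KPC than in WT, which did not pass (exact permutation test, p = 0.00816, adjusted p = 0.072), and it passed without KPC mouse 48 (-1.15, adjusted p = 0.0259, exact test).

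**Figure D5:**
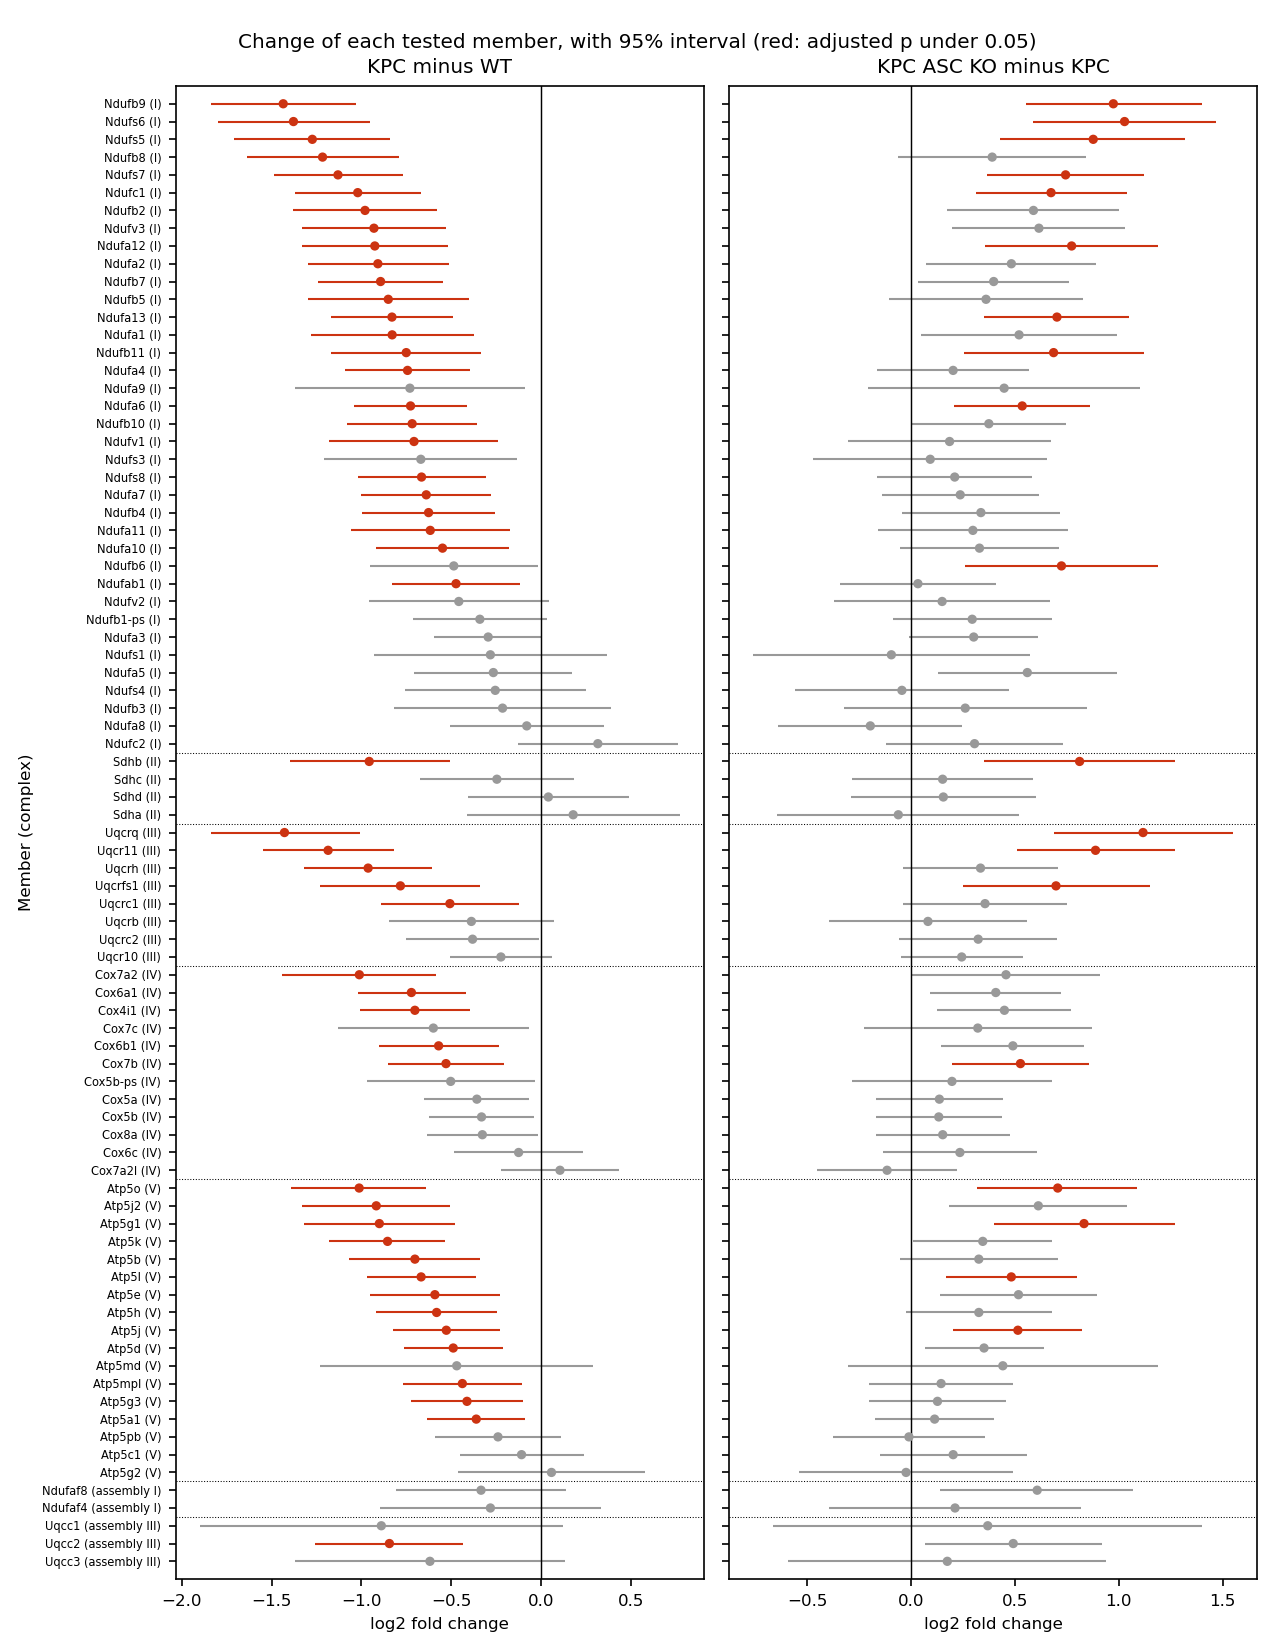
log2 difference (x axis) of 83 of the 84 tested members (y axis, by complex) between KPC and WT (left) and between KPC ASC KO and KPC (right), after TMM scaling; points are estimates, lines are 95% intervals, and red marks an adjusted p under 0.05. On the left 50 members are red and all of those lie below 0, and on the right 19 are red and all of those lie above 0; both signs turn over in most members with total-count scaling.

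In KPC ASC KO against KPC pancreas, 19 of the 84 tested members rose, 0 fell and 65 were not called (edgeR; 0 members were lower at an unadjusted p under 0.05). That is 22.6% of the members higher, where 6.73% of all genes tested were higher and 2.69% lower (9.42% in either direction). The median log2 difference of the members was 0.34 (range -0.20 to 1.12), against -0.05 over all genes. The direction again turns with scaling in most members. With total counts 0 members were higher (0 at an unadjusted p under 0.05) and 51 lower. Of those 51, 2 were among the 19 that rose with TMM, and Uqcrq and Ndufs6 stayed above 0 without being called. In that scaling 67.9% of all genes were lower, with the median of all genes at -1.05 and that of the members at -0.66. Relative to all genes the members stood at 0.39 under both scalings. This comparison shares its KPC mice with the one against WT, so the 2 are not independent.

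The number of calls depended on which mice were kept, among the members as among all genes tested. Without KPC mice 40, 89, 145 and 154, 0 members were called in edgeR (16 were higher at an unadjusted p under 0.05) and the members' median was 0.24, in a fit that called 1 gene of 5852. Without 1 mouse the number of members that rose was 4 (KPC ASC KO mouse 335), 7 (KPC ASC KO mouse 318), 8 (KPC mouse 89), 9 (KPC ASC KO mouse 388), 10 (KPC mouse 145 or 154) or 29 (KPC mouse 48), and between 13 and 23 for each other mouse. Over all genes tested the share higher moved as well. It was 1.78% without KPC ASC KO mouse 335, 2.21% without 318, 4.17% without KPC mouse 89 and 9.59% without KPC mouse 48. The members' median stayed between 0.29 and 0.42 in all the fits without 1 mouse. Of the tested members, 2 had every KPC ASC KO mouse above every KPC mouse, Atp5l and Ndufa5, and 0 the reverse, where 1.24% and 1.05% of all genes did so. When acinar enzyme abundance was added as a covariate, 0 members were called in edgeR (2 higher at an unadjusted p under 0.05), as was no other gene. Of the 36 acinar enzyme genes 32 rose in this comparison, as did 3 of 6 tested acinar transcription factors. Of 10 tested fibroblast markers 1 fell, Vim (-0.72, adjusted p = 0.0417), with a median of -0.54 and a summed level of 688 to 3630 CPM in KPC ASC KO, while of 10 tested macrophage markers 0 were called (edgeR), and their summed level was 549 to 3280 CPM in KPC ASC KO. The part of these cells in the rise of the members was not tested beyond these values.

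By complex, 10 of 38 tested members of complex I rose, 1 of 4 of complex II, 3 of 8 of complex III, 1 of 12 of complex IV and 4 of 17 of complex V, all on the TMM scale, where 6.73% of all genes tested were higher. The 1 member of complex IV is 8.33% of those tested, near that share, and the count of complex II rests on 1 gene. Uqcrq rose by a log2 difference of 1.12 (SE 0.21, adjusted p = 0.00433), Ndufs6 by 1.03 (SE 0.21, adjusted p = 0.00662), Ndufb9 by 0.97 (SE 0.21, adjusted p = 0.00683) and Uqcr11 by 0.89 (SE 0.18, adjusted p = 0.00662). These 4 were called in each of the 18 fits that left out 1 mouse, with adjusted p of at most 0.042. Without KPC mice 40, 89, 145 and 154 they were at 0.92, 0.80, 0.65 and 0.59, with adjusted p of 0.136, 0.197, 0.236 and 0.244. Their per-mouse values place mice 318, 335 and 388 near WT and mice 377 and 384 near or within the KPC range.

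Further members of complex I that rose were Ndufs7 (0.74, SE 0.18, adjusted p = 0.0155) and Ndufa13 (0.70, SE 0.17, adjusted p = 0.0141), the latter an accessory subunit also known as GRIM-19. Ndufa13 ran from 211 to 392 CPM in WT (median 305) and from 142 to 218 CPM in KPC (median 173), and read 285 (318), 379 (335), 208 (377), 237 (384) and 300 (388) CPM in KPC ASC KO. Just mouse 377 lay within the KPC range. Without KPC ASC KO mouse 335 the Ndufa13 difference was 0.59 (adjusted p = 0.0726) and that of Ndufs7 0.73 (adjusted p = 0.0567), and without mouse 318 Ndufs7 was at 0.70 (adjusted p = 0.0591). Ndufb6 rose (0.72, SE 0.23, adjusted p = 0.0434) although it was not called between KPC and WT (-0.49, adjusted p = 0.108). Ndufs1 (-0.09, 95% interval -0.76 to 0.57) was not called.

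Sdhb rose by 0.81 (SE 0.22, adjusted p = 0.0252). That call was lost without KPC mouse 89 (0.74, adjusted p = 0.0608) and without KPC ASC KO mice 318 (0.74, 0.0937), 335 (0.86, 0.0607) or 388 (0.76, 0.083). Sdha was at -0.06 (95% interval -0.64 to 0.52). In complex III Uqcrfs1 rose by 0.70 (SE 0.22, adjusted p = 0.0453), a call lost in 12 of 18 fits that left out 1 mouse (WT 1197, 1202, 1237 or 1238, KPC 40, 43, 89, 145 or 154, or KPC ASC KO 318, 335 or 388), with values of 0.58 to 0.86. In complex IV, Cox7b, a small subunit on the X chromosome, rose by 0.53 (SE 0.16, adjusted p = 0.0405), from 109 ± 21.1 CPM in KPC (SD, n = 7) to 156 ± 25.4 CPM in KPC ASC KO (SD, n = 5), beside 156 ± 15.7 CPM in WT (SD, n = 6). Its call was lost without KPC mice 43, 89, 145 or 154 and without KPC ASC KO mice 318, 335, 384 or 388, with values of 0.45 to 0.62 over the 18 fits. Cox4i1 (0.45, adjusted p = 0.0689) and Cox6a1 (0.41, adjusted p = 0.0899) were not called.

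In complex V, Atp5g1 rose by 0.83 (SE 0.21, adjusted p = 0.0176), but not without KPC ASC KO mouse 335 (0.77, adjusted p = 0.0749) or 388 (0.72, adjusted p = 0.0763). Atp5o rose by 0.71 (SE 0.19, adjusted p = 0.0217), Atp5j, the coupling factor 6, by 0.51 (SE 0.15, adjusted p = 0.0338) and Atp5l by 0.48 (SE 0.15, adjusted p = 0.0464). Leaving out KPC mouse 89, 145 or 154 or KPC ASC KO mouse 318, 335 or 388 ended the call of Atp5o (0.63 to 0.81 over the 18 fits) and of Atp5j (0.42 to 0.63), which was also lost without KPC mouse 40. The call of Atp5l was lost in 12 of 18 fits, those without WT 1197 or 1202, each KPC mouse but 48, and each KPC ASC KO mouse but 377 (0.41 to 0.56 over the 18). Atp5l ran from 95.1 to 122 CPM in KPC (median 116) and read 157 (318), 168 (335), 134 (377), 158 (384) and 177 (388) CPM in KPC ASC KO, so that the groups did not overlap. Atp5g2 was at -0.02 (95% interval -0.54 to 0.49), Atp5b at 0.33 (adjusted p = 0.265) and Atp5a1 at 0.11 (adjusted p = 0.64).

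Between KPC ASC KO and WT, 0 of the 84 tested members were called in either direction by edgeR, as by DESeq2 and limma-voom, and 0% of all genes tested were called by edgeR. At an unadjusted p under 0.05, 1 member was higher and 9 were lower in edgeR, and 1 and 12 in both other tools. The median log2 difference of the members was -0.28 (range -0.83 to 0.62), against 0.00 over all genes. The smallest p-values by complex were those of Ndufb8 (-0.83, 95% interval -1.31 to -0.35, adjusted p = 0.229), Sdhb (-0.15, 95% interval -0.64 to 0.35, adjusted p = 0.896), Uqcrh (-0.63, 95% interval -1.03 to -0.23, adjusted p = 0.276), Cox7a2 (-0.55, 95% interval -1.04 to -0.07, adjusted p = 0.433) and Atp5k (-0.51, 95% interval -0.87 to -0.15, adjusted p = 0.326). Ndufb8, a membrane arm subunit, read 171 (318), 109 (335), 79.8 (377), 87.2 (384) and 148 (388) CPM in KPC ASC KO, against 153 to 340 CPM in WT. Uqcrh was the sole tested member whose KPC ASC KO mice, at 89.0 to 165 CPM, all lay below the WT mice, at 170 to 276 CPM (0.477% of all genes did so). With 5 and 6 mice these intervals leave room for differences of the size seen between KPC and WT in some members, so the values do not show that the groups are alike.

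Subunits encoded in mitochondrial DNA were counted too. Of the 11 tested (of 13 in the table), 5 fell and 0 rose between WT and KPC, with a median of -0.59, and 4 rose and 0 fell between KPC and KPC ASC KO, with a median of 0.55, on the TMM scale in edgeR. Over all genes tested, 15.1% were lower in KPC against WT and 6.73% were higher in KPC ASC KO against KPC. The members gave 2.13 to 2.97 counts per count of these transcripts in WT, 2.08 to 2.88 in KPC and 1.71 to 2.23 in KPC ASC KO, a ratio within a library that does not depend on scaling. The WT and KPC ranges overlapped almost wholly. mt-Nd2 (-0.65, SE 0.17, adjusted p = 0.00527), mt-Cytb (-0.63, SE 0.19, adjusted p = 0.0146) and mt-Atp8 (-1.59, SE 0.40, adjusted p = 0.00464) fell in KPC against WT. The level of mt-Atp8 was low, at a mean of 36.8 CPM in WT and 13.9 CPM in KPC. mt-Nd4 (0.84, adjusted p = 0.00903), mt-Cytb (0.83, adjusted p = 0.0135) and mt-Nd1 (0.74, adjusted p = 0.0182) rose in KPC ASC KO against KPC. Ratios of a nuclear to a mitochondrial subunit of the same complex did not pass over all mice. The log2 ratio of Atp5b to mt-Atp6 differed by -0.464 between KPC and WT (exact permutation test, adjusted p = 0.072), that of Cox4i1 to mt-Co1 by -0.44 (adjusted p = 0.189 by the same exact test) and that of Uqcrc1 to mt-Cytb by 0.139 (adjusted p = 0.648, exact test). Between KPC ASC KO and WT, Atp5b to mt-Atp6 differed by -0.482 (adjusted p = 0.084, exact test) and Cox4i1 to mt-Co1 by -0.561 (adjusted p = 0.0866, exact test). Without WT mouse 1202, Atp5b to mt-Atp6 passed in KPC against WT (-0.553) and in KPC ASC KO against WT (-0.572), as did Cox4i1 to mt-Co1 in KPC ASC KO against WT (-0.716), each with an adjusted p of 0.0381 in the exact test.

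Genes that build or serve the chain were counted from lists of their own, and differences between lists were not tested. Over all genes tested, 15.1% were lower and 14.8% higher in KPC against WT, and 6.73% were higher in KPC ASC KO against KPC. The counts of complex I and complex IV assembly factors that fell in KPC were near the first of these shares. In KPC against WT, 2 of 14 tested complex IV assembly factors fell, Coa3 (-1.30, SE 0.21, adjusted p = 0.000186) and Pet100 (-0.85, SE 0.26, adjusted p = 0.0162), with a median of -0.20. Of 8 tested complex I assembly factors, a list that includes the Ndufaf members, 1 fell, Tmem126a (-0.90, SE 0.30, adjusted p = 0.0236), and of 3 tested for complex V 1 fell, Tmem242 (-1.12, SE 0.25, adjusted p = 0.00209). Sdhaf2, which helps attach the flavin to Sdha and was the sole tested assembly factor of complex II, rose (1.22, SE 0.32, adjusted p = 0.00658). Of the 3 tested genes for coenzyme Q and cytochrome c, Coq8a (-1.66, SE 0.35, adjusted p = 0.00156) and Coq9 (-1.15, SE 0.27, adjusted p = 0.00299) fell, and Cycs was at 0.30 (adjusted p = 0.383). Coa3 (0.90, adjusted p = 0.0155) and Coq8a (1.44, adjusted p = 0.0161) rose in KPC ASC KO against KPC.

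Of 16 tested genes of the citric acid cycle and pyruvate dehydrogenase, 4 fell and 0 rose in KPC against WT (median -0.26), among them Idh2 (-0.85, adjusted p = 0.00527), Suclg1 (-0.71, adjusted p = 0.0111) and Suclg2 (-0.998, adjusted p = 0.018). Idh2 was the 1 gene of these 16 that rose in KPC ASC KO against KPC (0.73, adjusted p = 0.0401). Of 65 tested mitochondrial ribosome genes 12 fell and 1 rose (median -0.22), where 15.1% of all genes tested fell and 14.8% rose. They were led by Mrps24 (-1.14), Mrps34 (-1.22) and Mrps21 (-0.83), and 2 of the 65 rose in KPC ASC KO against KPC (6.73% of all genes). Of 23 tested import and chaperone genes 6 fell and 1 rose (median -0.26), among them Timm17b (-1.10), Timm13 (-0.65) and Hspe1 (-0.62). Of 11 tested genes for ATP and phosphate exchange (median -0.14), 2 rose and 0 fell in KPC, the ADP/ATP carrier Slc25a4 (1.17, SE 0.21, adjusted p = 0.000425) and Ucp2 (1.37, SE 0.28, adjusted p = 0.00101), and both fell in KPC ASC KO against KPC (-0.67, adjusted p = 0.0409, and -0.99, adjusted p = 0.0249).

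Of 12 tested glycolytic genes 3 rose and 1 fell in KPC against WT, the 3 with the smallest p-values being Ldha (0.54, SE 0.16, adjusted p = 0.0138), Pgk1 (2.35, SE 0.69, adjusted p = 0.0159) and Pfkp (1.20, SE 0.40, adjusted p = 0.0269). In WT Pgk1 averaged 8.37 CPM and Pfkp 11.4 CPM, few counts per WT library, so the sizes of these 2 differences are measured roughly. None of the 12 was called in KPC ASC KO against KPC (edgeR), where Ldha stood at -0.37 (adjusted p = 0.153). Of 81 tested cytosolic ribosome genes 17 fell and 3 rose between WT and KPC (median -0.185), and 10 rose between KPC and KPC ASC KO. Over all genes tested, 15.1% fell and 14.8% rose between WT and KPC, and 6.73% rose between KPC and KPC ASC KO. Regulators of respiratory genes were sparsely counted: 6 of 15 were tested and 0 were called in any comparison by edgeR, with Ppargc1b at -0.55 (adjusted p = 0.143) and Esrra at -0.55 (adjusted p = 0.282) in KPC against WT.

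The 5 other genes whose log2 CPM over the 18 mice was most like the score of all members were Gal (Pearson r = 0.981), Rps27l (0.981), Hamp2 (0.978), Dhx34 (0.976) and Bckdha (0.975). These are descriptions over mice that share libraries, groups and scaling. Gal, for example, averaged 1370 CPM in WT, 54.8 CPM in KPC and 521 CPM in KPC ASC KO, and Bckdha, a subunit of the branched-chain keto acid dehydrogenase, 136, 37.6 and 93.7 CPM. Transcripts of the members are short, with a median length of 659 bases over the 83 tested members with a length, against 1929 bases over 6313 tested genes. Across those members, length and the log2 difference between KPC and WT had a Spearman rho of 0.14, and across all those genes 0.12, as a description across genes that are not independent. By promoter sequence, as a description with no test, of the 6 tested members with the NRF1 core 4 fell in KPC, with a median of -0.56, and of the 64 with a promoter window but without it 40 fell, with a median of -0.65. With the ETS sequence 12 of 18 fell, and without it 32 of 52. With the YY1 sequence, which for all but Atp5j reaches past the start, 7 of 12 fell (median -0.79), and without it 37 of 58 (median -0.62). With the GC box GGGCGG 16 of 32 fell, and without it 28 of 38.

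The 13 members that did not pass the filter were the 6 second isoforms of complex IV named with their counts, Ndufa4l2, and 6 assembly factors (Ndufaf1, Ndufaf2, Ndufaf3, Ndufaf5, Ndufaf6 and Ndufaf7, with 59 to 205 counts over all 18 libraries). Ndufa4l2, a relative of Ndufa4 that is known to rise in low oxygen, had 34 counts in all. It ran from 4.24 to 10.3 CPM in WT and from 0 to 3.19 CPM in KPC, on 1 to 2 counts in each WT library. Among KPC ASC KO mice it was 0 (318), 3.91 (335), 3.71 (377), 5.56 (384) and 8.44 (388) CPM. Counts this low do not measure a difference, and no test was made for these 13 members.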

How the data were processed

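Poly(A)-primed RNA from 18 snap-frozen pancreases was measured. Per the labels' protocols, each cDNA received a sample index and a UMI during poly(A) priming and libraries were fragmented by transposase. The authors deposited whole-number UMI counts per gene, not normalised. Per the submitters' processing notes they used R 4.1.2, edgeR 3.36.0, limma 3.50.0 and GRCm38 or mm10. Not stated are the aligner, UMI collapsing and annotation (not given in the sources used here). 3' counts of short genes with processed pseudogenes may be shared with copies.

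Counts were analysed with edgeR 4.0.16 in R 4.3.3: filterByExpr (minimum count 10), TMM scaling, robust quasi-likelihood F test on all 18 mice in 3 groups, and Benjamini-Hochberg adjustment over 6920 genes. Standard errors are the absolute log2 difference divided by the square root of F. Scores used a prior count of 2. Ratios used counts plus 0.5 and exact two-sided permutation tests. Scripts were tested on simulated data. Alternatives included DESeq2 1.42.0 and limma-voom (limma 3.58.1), other scalings and filters, thinned libraries and omitted mice. Leaving out KPC mice 40, 89, 145 and 154 was chosen after seeing the data. Members, gene lists and comparisons were chosen with earlier results of these data known.

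Named genes are 11 central subunits (1 further member, counted in all totals and in the 24 ratio tests, is not reported here), isoform pairs, up to 4 called members per complex, comparison and direction with the smallest p-values (or 1 where none was called), up to 3 per other list, and the 5 genes most like the score. Each library is 1 mouse, grouped by its labelled genotype. No 2 libraries of a group were copies (chi-square over degrees of freedom at least 2.35). Mouse numbers are not shared between groups. The shallowest library held 294077 counts, so genes near 10 counts are measured roughly.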

Additional observations from a re-analysis of the deposited data

Results flagged for a closer look

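Among 126 groups of values examined (each named member and score in each genotype), 11 held 1 mouse far from the rest of its group by Dixon's criterion, and chance flags about 1 in 20 groups. KPC mouse 48 was the highest of its group for 4 members: Ndufv1 at 93.6 CPM (next 46.6), Sdhb at 101 CPM (next 62.3), Atp5b at 310 CPM (next 225) and Atp5g1 at 154 CPM (next 93.8). This mouse also had the largest acinar enzyme share of the KPC mice, 45.6% of counts, and the highest score of all members, 6.64. WT mouse 69 stood above its group for Cox7a2 at 269 CPM (next 157) and Ndufb8 at 340 CPM (next 217). WT mouse 1238 stood above its group for Atp5j at 338 CPM (next 284), and KPC mouse 210 for Ndufs5 at 58.5 CPM (next 36.0). The complex II score of KPC mouse 40 was 5.98, with the next at 5.73. Cox4i2 in KPC ASC KO mouse 384 (3.71 CPM) and Cox7a1 in WT mouse 1197 (3.45 CPM) were the sole values above 0 in their groups and rest on 1 or 2 counts.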

How the results depend on the processing

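With total-count scaling the median of all genes moved to 1.30 for KPC against WT and to -1.05 for KPC ASC KO against KPC, and the signs of most members turned over. Ndufb9, Ndufs6, Ndufs5, Uqcrq and Uqcr11 stayed below 0 for KPC against WT, and Uqcrq and Ndufs6 above 0 for KPC ASC KO against KPC, without being called. For KPC against WT it gave 50 members higher and 0 lower, a score difference of 0.60, and log2 differences of 0.965 for Ndufs1, 0.481 Ndufv1, 0.463 Ndufa4, 0.211 Sdhb, 0.702 Uqcrc1, 0.436 Uqcrfs1, 0.491 Cox4i1, 0.882 Cox5a, 0.871 Atp5a1, 0.49 Atp5b, 0.47 Cox6a1, 0.202 Cox7a2, 0.260 Atp5g1, 0.807 Atp5g3, 0.034 Ndufs7, 0.229 Uqcrh, 0.632 Cox6b1, 0.183 Atp5o, 0.332 Atp5k, 0.266 Atp5j2 and 0.558 Atp5l. For KPC ASC KO against KPC it gave 0 members higher and 51 lower, a score difference of -0.62, and -0.0503 for Ndufb9, -0.323 Ndufa13, -0.230 Ndufs7, -0.206 Sdhb, -0.0957 Uqcr11, -0.363 Uqcrfs1, -0.464 Cox7b, -0.147 Atp5g1, -0.304 Atp5o, -0.523 Atp5j and -0.528 Atp5l. For KPC ASC KO against WT it gave 0.0056 for Sdhb and a score difference of -0.02. Elsewhere Sdha turned to -0.00888 (acinar covariate), and Atp5g2 to -0.00085 (limma-voom) and -0.0951 (without KPC mice 40, 89, 145 and 154), all for KPC against WT and near 0. The cause was not tested.

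Members lower in KPC against WT numbered 50, and 43 to 53 without 1 mouse. They numbered 30 with no filter (4.23% of all genes lower), 0 with the acinar enzyme covariate (0%), 19 without the 4 KPC mice (5.91%), and 43 to 52 under the 8 other alternatives. Members higher in KPC ASC KO against KPC numbered 19, and 4 to 29 without 1 mouse, where 1.78% to 9.59% of all genes were higher. They numbered 7 with no filter (1.66% of all genes), 6 with the 2 groups alone (1.94%), 10 in thinned libraries (6.44%), 0 with the covariate and 0 without the 4 KPC mice (0% in each), and 13 to 22 under the 6 others. Leaving out 1 mouse also moved values across 0: -0.0487 to 0.197 for Atp5g2 in KPC against WT, and the log2 ratios of Uqcrc1 to mt-Cytb in KPC against WT (-0.0182 to 0.245), Atp5b to mt-Atp6 in KPC ASC KO against KPC (-0.0998 to 0.0754), and Atp5g1 to Atp5g2 (-0.219 to 0.131) in KPC ASC KO against WT. No paired analysis was possible because no mouse number is shared between groups. Depth limits members such as Ndufs1, with 4 to 12 counts in each WT library.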
